A study of Mus musculus with 10 samples.

Results

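The cathepsins and lysosomal glycosidases described here are 10 genes: the cathepsins Ctsa, Ctsb, Ctsd, Ctsf, Ctsk, Ctsl, Ctss and Ctsz, and the glycosidases Gla and Gusb. They were taken by symbol, and every probe set whose platform annotation carries one of these symbols alone was kept, which gave 22 of the 45037 probe sets in the table. The genes were 10 of the 18193 with a probe set of their own and 10 of the 13644 bright enough to be tested. The study measured RNA of 3T3-L1 cells, a mouse fibroblast line of preadipocytes that can be turned into fat cells in culture, after a transient knockdown of LSD1, the histone demethylase encoded by Kdm1a. All cells were transfected at 60 nM, either with a siRNA directed against LSD1 (siLsd1) or with a scrambled siRNA (siC), and none had their medium changed. The 24 h groups were of passage 19 with 2 arrays per siRNA, and the 48 h groups were of passage 21 with 3 arrays per siRNA, so time and passage cannot be told apart. Replicates are biological per the labels, and the spread behind each p-value is that between these samples only.

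Lysosomes are acidic organelles in which proteins, lipids and sugar chains are broken down, and their enzymes reach them mostly by a mannose 6-phosphate tag. Most cathepsins are papain-like cysteine proteases (Ctsb, Ctsf, Ctsk, Ctsl, Ctss and Ctsz here), while cathepsin D (Ctsd) is an aspartic protease and cathepsin A (Ctsa) a serine carboxypeptidase that also protects other enzymes in the lysosome. Gla encodes alpha-galactosidase A, which is lacking in Fabry disease, and Gusb encodes beta-glucuronidase, which removes glucuronic acid from glycosaminoglycans and is lacking in mucopolysaccharidosis type VII. Many lysosomal genes carry a CLEAR element, a form of E-box bound by the transcription factor TFEB and its relatives, whereas Ctss is known as a gene of antigen-presenting cells that responds to interferon. In fat tissue, cathepsins S, L and K are known for cutting matrix proteins.

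The promoters of the members differ in these motifs, and the windows of the member with the largest rise (Ctss), of the glycosidase that rose (Gla) and of the other members with the core of the CLEAR element (Ctsa and Ctsd) are printed here. RefSeq's table for GRCm38.p6 gave windows from 250 bases before to 50 after a gene's start for 9 of the 10 members, and 2 windows for Ctsa, of which the one with matches is shown. The Ctss window is chr3:95526536-95526835 on the plus strand, that of Gla is chrX:134600956-134601255 on the minus strand, that of Ctsa is chr2:164833523-164833822 on the plus strand and that of Ctsd is chr7:142387778-142388077 on the minus strand. Each is written 5′ to 3′ on the gene's strand, with the matched letters in capitals.
Ctss: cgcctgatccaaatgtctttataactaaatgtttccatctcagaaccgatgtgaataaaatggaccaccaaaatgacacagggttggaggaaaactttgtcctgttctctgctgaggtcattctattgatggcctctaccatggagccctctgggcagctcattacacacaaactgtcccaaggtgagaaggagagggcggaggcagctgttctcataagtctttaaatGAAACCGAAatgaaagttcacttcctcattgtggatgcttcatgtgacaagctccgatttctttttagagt
Gla: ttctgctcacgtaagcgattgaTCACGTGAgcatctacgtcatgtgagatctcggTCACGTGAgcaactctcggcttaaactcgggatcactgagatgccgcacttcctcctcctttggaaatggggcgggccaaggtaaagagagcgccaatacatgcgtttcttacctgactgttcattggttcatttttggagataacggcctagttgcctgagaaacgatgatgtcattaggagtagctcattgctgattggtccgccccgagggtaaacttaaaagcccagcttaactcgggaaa
Ctsa: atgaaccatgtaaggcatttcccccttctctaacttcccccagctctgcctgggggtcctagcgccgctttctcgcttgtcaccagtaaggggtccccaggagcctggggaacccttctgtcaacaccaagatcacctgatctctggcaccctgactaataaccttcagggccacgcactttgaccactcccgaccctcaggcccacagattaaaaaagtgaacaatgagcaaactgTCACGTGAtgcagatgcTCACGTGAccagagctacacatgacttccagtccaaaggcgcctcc
Ctsd: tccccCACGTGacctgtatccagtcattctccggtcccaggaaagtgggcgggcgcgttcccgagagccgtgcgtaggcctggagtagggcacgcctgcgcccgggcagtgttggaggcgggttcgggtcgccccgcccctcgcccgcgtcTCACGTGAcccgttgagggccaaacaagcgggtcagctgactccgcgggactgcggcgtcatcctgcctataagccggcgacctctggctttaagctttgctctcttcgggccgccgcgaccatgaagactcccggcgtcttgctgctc
Both strands were searched for CACGTG (the E-box), TCACGTGA (the core of the CLEAR element, which holds the E-box), GAAANNGAA (the interferon response element) and TTCNNNGAA (the gamma-activated site). Counting the last base before the start as -1, the TCACGTGA matches began at -228 and -195 in Gla, at -13 and 5 in Ctsa, and at -99 in Ctsd, which also held an E-box at -245. The E-box alone began at -79 in Ctsf and at -236 in Ctsl. Ctss held the only interferon element among the members, beginning at -21, and no window held the gamma site. No searched letters were found in the windows of Ctsk, Ctsz and Gusb or in the other Ctsa window. Over all 32851 promoter windows of the table, 7.15% held CACGTG, 0.974% TCACGTGA, 8.56% GAAANNGAA and 8.3% TTCNNNGAA, against 5, 3, 1 and 0 of the 9 members. These matches describe the letters of the windows, and no binding was measured.

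The deposited values are intensities on a linear scale, compared here as log2 of the intensity, and the median per array lay between 35.6 and 40.6. Kdm1a, the targeted gene, read 1559 and 1621 with siC and 1001 and 971 with siLsd1 at 24 h. The 48 h readings were 1596, 1787 and 1775 with siC and 1352, 1336 and 897 with siLsd1, so that the groups did not overlap at either time. Its log2 change was -0.69 at 24 h (SE 0.17, limma adjusted p = 0.0473) and -0.55 at 48 h (SE 0.14, limma adjusted p = 0.0338). siLsd1 replicate 3 at 48 h stood apart: over 6943 brighter genes, the SD of its log2 difference from the other arrays of its group was 0.441 and 0.439, against 0.0892 to 0.205 for all other pairs within a group. The siLsd1 changes of Kdm1a and of each member (by its brightest probe set) at 48 h are therefore also given without it, as are the counts of called members, list genes and markers. Kdm1a was then at -0.35 at 48 h (limma adjusted p = 0.00277). Replicate 3 also had the lowest Kdm1a reading of its group, and the other Kdm1a probe set read 448, 449 and 338 on the same arrays. The fits without it thus keep the siLsd1 48 h arrays with the smaller fall of Kdm1a. A link between that fall and how far replicate 3 stood apart was not tested. All 8 listed markers of preadipocytes or fibroblasts were bright enough to be tested, while Lep and Cidec, which mark fat cells, and Pecam1 and Cdh5, which mark endothelium, were not. Other listed markers were tested, with none called by limma at either time. They were Adipoq of fat cells (at most 80.6 on any array), and Kdr (76.7) and Tek (45.7) of endothelium. Of the 8 preadipocyte or fibroblast markers, Thy1, a surface protein of fibroblasts, was the 1 called, and it fell by 0.83 at both times (limma adjusted p = 0.0112 and 0.00412). With siLsd1 48 h replicate 3 left out, 4 of the 8 were lower at 24 h (Dlk1, Pdgfra, Pdgfrb and Thy1) and 2 at 48 h (Pdgfrb and Thy1, the latter at -0.70), and 0 were higher. Of all 13644 genes tested, 2094 were lower at 24 h and 1359 at 48 h in that fit. The summed intensity of the 8 markers was 58510 to 60210 with siC and 54340 to 55110 with siLsd1 at 24 h, and 60900 to 61970 with siC and 46420 to 58090 with siLsd1 at 48 h.

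With siLsd1, Ctss and Gla were called higher and Gusb lower at both times, Gusb by its brighter probe set only. Ctsf, Ctsk and Ctsa were called lower at 48 h only, though the log2 change of Ctsf was alike at both times (-0.80 and -0.85). The change at 48 h minus that at 24 h was called for 0 of the members. The Ctsa call was made in 2 of the 10 fits that left out 1 array. A gene was called changed at an adjusted p under 0.05, from a limma fit over all 10 arrays with Benjamini-Hochberg adjusted p-values over the 13644 genes tested. At 24 h, 2 of the 10 members were called higher and 1 lower, where 2.60% of all genes tested were called higher and 2.79% lower. At 48 h, 2 members were called higher and 4 lower, where 6.00% of all genes were called higher and 6.67% lower. The median log2 change of the members was 0.04 at 24 h, beside -0.02 over all genes, and -0.16 at 48 h, beside -0.02. Without siLsd1 48 h replicate 3, 2 members were higher and 2 lower at 24 h, and 2 were higher and 5 lower at 48 h. More of all 13644 genes were called in that fit, 1384 higher and 2094 lower at 24 h. At 48 h it called 1114 of them higher and 1359 lower. RNA came from whole cultures, in which fewer cells that express a gene and less of its RNA per cell cannot be told apart.

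**Figure D1:**
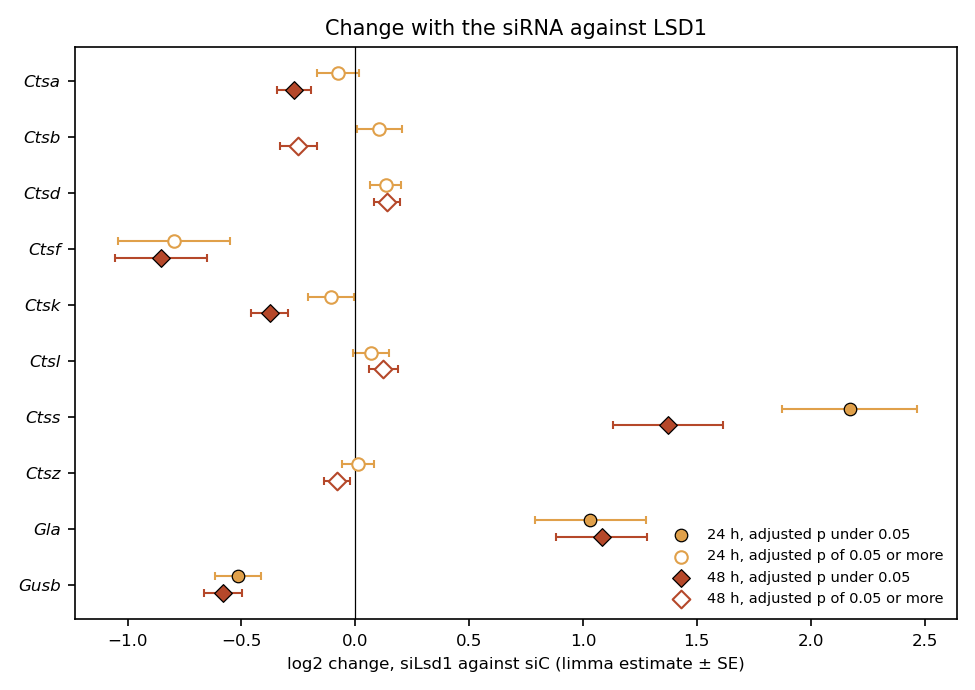
Log2 change of each member with siLsd1 against siC at 24 h (circles) and 48 h (diamonds), as the limma estimate ± SE from 2 against 2 and 3 against 3 arrays, filled where the adjusted p was under 0.05. Ctss lay farthest to the right at 24 h (2.17), Gla lay near 1 at both times (1.03 and 1.08), and Ctsf lay farthest to the left at 48 h (-0.85).

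Ctss encodes cathepsin S, a cysteine protease that trims the invariant chain of MHC class II and stays active outside the lysosome. At 24 h its intensity was 44.9 and 48.9 on the siC arrays and 237 and 188 on the siLsd1 arrays. At 48 h it was 25.4, 25.7 and 35.0 with siC and 91.9, 87.0 and 49.8 with siLsd1. The groups did not overlap at either time, and the lowest siLsd1 value at 48 h was that of replicate 3. The siC readings were dim, just above the array medians (35.6 to 40.6) at 24 h and below them at 48 h. The folds thus rest on low control values, and on 1 probe set. The rise was 2.17 on the log2 scale at 24 h (SE 0.30, limma adjusted p = 0.0052), or 4.50-fold, and 1.38 at 48 h (SE 0.24, limma adjusted p = 0.00963), or 2.59-fold. Leaving out siLsd1 48 h replicate 3 gave a rise of 1.66 at 48 h (3.15-fold, limma adjusted p = 0.000155). The 48 h call was made in each of the 10 fits that left out 1 array, whereas the 24 h call was lost without siC 24 h replicate 1 (limma adjusted p = 0.0618), siC 24 h replicate 2 (0.052) and also without siLsd1 24 h replicate 1 (0.0819), and the 48 h call with the arrays of 48 h fitted alone (0.0537).

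Since Ctss is abundant in macrophages, the markers of that cell type were read beside it. Of 13 macrophage genes on the array, 11 were bright enough to be tested and 1 of these, Mpeg1, was called at each time. Mpeg1, which encodes a pore-forming protein of phagocytes, rose by 1.74 on the log2 scale at 24 h (limma adjusted p = 0.0155) and by 2.50 at 48 h (limma adjusted p = 0.000713), or 2.87 without siLsd1 48 h replicate 3 (limma adjusted p = 7.35e-07). The lysozyme genes had negative log2 changes, Lyz2 of -0.43 at 24 h (limma adjusted p = 0.516) and -0.54 at 48 h (0.231), and Lyz1 of -0.50 (0.592) and -0.85 (0.178). The same held for Aif1, at -0.27 (0.493) and -0.37 (0.165), and Fcer1g, at -0.15 (0.87) and -0.53 (0.285). Itgam was at -0.75 at 24 h (limma adjusted p = 0.325) and 0.16 at 48 h (0.791), and Tyrobp at -0.21 (0.637) and 0.11 (0.729). Positive at both times were Cd68, at 0.58 (limma adjusted p = 0.403) and 0.47 (0.327), and Adgre1, at 0.13 (0.701) and 0.30 (0.171). Cd14 was so too, at 0.275 (limma adjusted p = 0.244) and 0.03 (0.852). With siLsd1 48 h replicate 3 left out, the calls at 24 h were 2 higher (Mpeg1 and Cd14) and 2 lower (Lyz1 and Lyz2), and at 48 h 1 higher and 0 lower. Over all 13644 genes, that fit called 1384 higher and 2094 lower at 24 h, and 1114 and 1359 at 48 h. The summed intensity of the 13 genes was 2058 to 2105 with siC and 2803 to 3186 with siLsd1 at 24 h, and 1344 to 1374 with siC and 1195 to 1867 with siLsd1 at 48 h. Without Mpeg1, the other 12 genes summed to 1590 to 1658 with siC and 1455 to 1485 with siLsd1 at 24 h, and to 1270 to 1287 with siC and 923.8 to 1288 with siLsd1 at 48 h. The brightest of the 12 at 24 h were Lyz1, Cd14 and Lyz2, so these weigh most in the sum. From siC to siLsd1, their 24 h means went from 590.6 to 417 (Lyz1), from 342.5 to 414.4 (Cd14) and from 306.3 to 226.7 (Lyz2). Ptprc, the pan-leukocyte gene for CD45, read between 3.28 and 17.0 on all arrays and Cx3cr1, a chemokine receptor of monocytes and macrophages, between 3.71 and 27.7, and both were among the dim genes left out of the test. Csf1r, the receptor that macrophages need to survive, read 81.9 to 121.8 over the 10 arrays and its log2 change was 0.11 at 24 h (limma adjusted p = 0.762) and 0.11 at 48 h (limma adjusted p = 0.604). The part of such cells in the Ctss result was not tested.

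**Figure D2:**
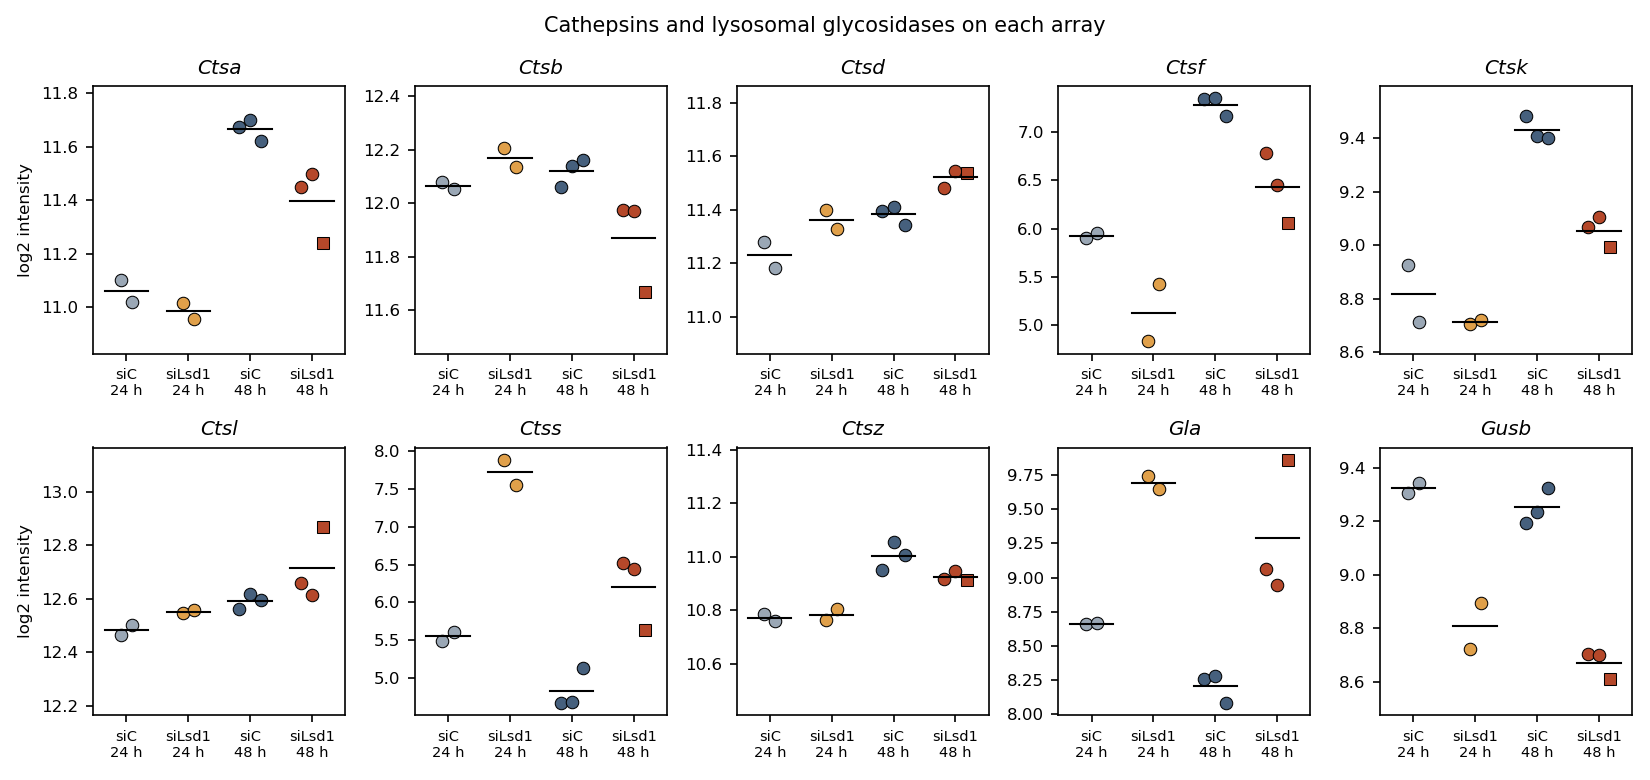
Log2 intensity of the 10 members on each of the 10 arrays, by group, with the brightest probe set standing for a gene, bars at the group means and siLsd1 48 h replicate 3 as a square. The vertical scales differ between panels, each spanning at least 1 log2 unit. The Ctss and Gla points of siLsd1 lie above those of siC at the same time, and the Gusb points lie below.

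Ctsf encodes cathepsin F, a papain-like protease with a long propeptide. Its intensity at 24 h was 59.7 and 62.1 with siC and 28.5 and 43.1 with siLsd1. The 48 h intensities were 161, 163 and 143 with siC and 110, 87.5 and 66.8 with siLsd1. The siLsd1 arrays lay below the siC arrays at both times, with the siC arrays of 48 h the highest of all. The log2 change was -0.80 at 24 h (SE 0.25, limma adjusted p = 0.0925) and did not pass the test. The fall of 48 h passed, at -0.85 (SE 0.20, limma adjusted p = 0.0281), or 1.81-fold. Both passed without siLsd1 48 h replicate 3, at -0.80 for 24 h (limma adjusted p = 0.0127) and -0.67 for 48 h (limma adjusted p = 0.0263). The 48 h call was lost without siC 48 h replicate 1 (limma adjusted p = 0.084), replicate 2 (0.0981) or replicate 3 (0.065), with the mean of its probe sets (0.0662) and with the arrays of 48 h alone (0.0657). The other Ctsf probe set, which is part of that mean, was too dim to be tested (mean intensity 11.9).

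Ctsk encodes cathepsin K, the collagen-cutting protease of osteoclasts that fibroblasts also make. At 24 h its intensity was 486 and 419 with siC and 417 and 422 with siLsd1, and the groups overlapped. Those of 48 h were 716, 679 and 676 with siC and 536, 550 and 510 with siLsd1, with no overlap. The log2 change was -0.11 at 24 h (SE 0.10, limma adjusted p = 0.586) and -0.38 at 48 h (SE 0.08, limma adjusted p = 0.022), or 1.30-fold lower. It was -0.35 (limma adjusted p = 0.00948) with siLsd1 48 h replicate 3 left out. The 48 h call was lost without siC 48 h replicate 1 (limma adjusted p = 0.0722), replicate 2 (0.0818) or replicate 3 (0.0603), with the replicate number as a block (0.0717) and with the arrays of 48 h alone (0.0703).
Markers of osteoclasts were read beside it: of 6 genes, 3 were bright enough to be tested and 0 were called by limma at either time, with 1 at an unadjusted p under 0.05 at each. With siLsd1 48 h replicate 3 left out, 1 was lower at each time (Itgb3) and 0 were higher. Of all 13644 genes, 2094 were lower at 24 h and 1359 at 48 h in that fit. Acp5 and Calcr, which define that cell type, read at most 12.8 and 8.12 on any array, both among the dim genes. The summed intensity of the 6 genes was 205.1 to 210.8 with siC and 121.8 to 128.8 with siLsd1 at 24 h, and 386.4 to 447 with siC and 189.5 to 316.3 with siLsd1 at 48 h. Without Itgb3, the other 5 summed to 71.67 to 72.07 and 59.06 to 70.3 at 24 h, and to 44.64 to 71.37 and 58.3 to 83.46 at 48 h. Itgb3, the integrin beta 3 subunit, had a log2 change of -1.17 at 24 h (limma adjusted p = 0.0739) and -0.94 at 48 h (limma adjusted p = 0.0508), and without siLsd1 48 h replicate 3 of -1.17 (2.21e-05) and -0.53 (0.0027). The other tested markers were Oscar, at 0.06 (limma adjusted p = 0.963) and 0.57 (0.318), and Ocstamp, at -0.12 (0.905) and 0.11 (0.851). The part of such cells in the Ctsk result was not tested.

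Ctsb encodes cathepsin B, a cysteine protease that cuts both inside chains and from their ends. Its brightest probe set read 4322 and 4251 with siC and 4729 and 4494 with siLsd1 at 24 h. At 48 h it read 4273, 4510 and 4585 with siC and 4022, 4011 and 3257 with siLsd1. The siLsd1 arrays were thus the higher ones at 24 h and the lower ones at 48 h, without overlap. Neither log2 change passed the test, at 0.11 for 24 h (SE 0.10, limma adjusted p = 0.577) and -0.25 for 48 h (SE 0.08, limma adjusted p = 0.067). With siLsd1 48 h replicate 3 left out, the 48 h change was smaller, at -0.15, and passed (limma adjusted p = 0.0439). Of its other probe sets, 1 read 586, 501 and 462 with siC and 342, 357 and 137 with siLsd1 at 48 h, a log2 change of -1.01 that did not pass (limma adjusted p = 0.0715 in a fit of every probe set), with replicate 3 the lowest array.

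Ctsl and Ctsz encode cathepsin L, a general protease of the lysosome, and cathepsin Z, a carboxypeptidase that takes off single residues. Ctsl read 5648 and 5805 with siC and 5982 and 6028 with siLsd1 at 24 h, and 6041, 6284 and 6188 with siC and 6467, 6274 and 7474 with siLsd1 at 48 h. The 48 h groups overlapped, and replicate 3 of siLsd1 was the highest array. The log2 change of Ctsl was 0.07 at 24 h (SE 0.08, limma adjusted p = 0.657) and 0.12 at 48 h (SE 0.06, limma adjusted p = 0.221). Ctsz read 1764 and 1735 with siC and 1739 and 1786 with siLsd1 at 24 h, and 1980, 2129 and 2055 with siC and 1932, 1974 and 1929 with siLsd1 at 48 h. The groups overlapped at 24 h, and at 48 h the siLsd1 arrays lay just below. The log2 change of Ctsz was 0.01 at 24 h (SE 0.07, limma adjusted p = 0.953) and -0.08 at 48 h (SE 0.06, limma adjusted p = 0.377). At 48 h, leaving out siLsd1 replicate 3 put Ctsl at 0.05 (limma adjusted p = 0.467) and Ctsz at -0.07 (0.368). Neither gene passed the test with siLsd1 at either time in the fit of all arrays, and the sign of both small changes at 24 h turned under quantile normalization and with probe sets averaged per gene.

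Ctsd, the aspartic protease, read 2486 and 2322 with siC and 2701 and 2570 with siLsd1 at 24 h. The arrays of 48 h read 2691, 2724 and 2596 with siC and 2861, 2986 and 2971 with siLsd1. Each siLsd1 array was above each siC array of its time, by a small amount. The log2 changes were 0.13 at 24 h (SE 0.07, limma adjusted p = 0.292) and 0.14 at 48 h (SE 0.06, limma adjusted p = 0.125), and neither passed the test. The 48 h change was 0.13 with siLsd1 replicate 3 left out (limma adjusted p = 0.109).

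Ctsa, the serine carboxypeptidase and protective protein, read 2201 and 2074 with siC and 2072 and 1986 with siLsd1 at 24 h. At 48 h it read 3268, 3325 and 3156 with siC and 2801, 2895 and 2417 with siLsd1. The 48 h groups did not overlap, and all arrays of 48 h lay above all arrays of 24 h. The log2 change was -0.08 at 24 h (SE 0.09, limma adjusted p = 0.679) and -0.27 at 48 h (SE 0.07, limma adjusted p = 0.0431), or 1.21-fold lower. Leaving out siLsd1 48 h replicate 3 gave a fall of 1.14-fold at 48 h (log2 -0.19, limma adjusted p = 0.0229). Of the 10 fits without 1 array, 2 made this call, those without siLsd1 48 h replicate 2 or 3, and the other 8 gave limma adjusted p-values from 0.0512 (without siLsd1 48 h replicate 1) to 0.141 (without siC 48 h replicate 2). It was also lost with the mean of its probe sets (0.285), the arrays of 48 h alone (0.114), no intensity trend (0.091), the replicate number as a block (0.0781), arrays centred on their medians (0.0709), no filter on dim genes (0.0566) and every probe set tested (0.055).

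Gla, the alpha-galactosidase, rose on each siLsd1 array of each time. Its brightest probe set read 404 and 407 with siC and 858 and 801 with siLsd1 at 24 h. Its values at 48 h were 306, 310 and 271 with siC and 534, 492 and 932 with siLsd1, with replicate 3 far above the other siLsd1 arrays. The rise was 1.03 on the log2 scale at 24 h (SE 0.25, limma adjusted p = 0.0403), or 2.05-fold, and 1.08 at 48 h (SE 0.20, limma adjusted p = 0.0117), or 2.12-fold. The 48 h rise without siLsd1 replicate 3 was 1.74-fold (log2 0.80, limma adjusted p = 9.43e-05) and the spread was smaller, so that the 24 h rise had a limma adjusted p of 2.22e-05. The 48 h call was made in all 10 fits that left out 1 array and lost with the arrays of 48 h alone (limma adjusted p = 0.0596). The 24 h call was lost in the 7 that left out an array of 24 h or a siC array of 48 h, with limma adjusted p-values from 0.0624 (without siC 48 h replicate 1) to 0.261 (without siLsd1 24 h replicate 1), with the replicate number as a block (0.104), the mean of its probe sets (0.115), no intensity trend (0.0761) and every probe set tested (0.0588).
The second Gla probe set gave the same direction with less spread in siLsd1 at 48 h. It read 141.0 and 129.7 with siC and 320 and 303 with siLsd1 at 24 h, and 100.9, 107.6 and 85.5 with siC and 162, 171 and 175 with siLsd1 at 48 h. Here replicate 3 stood with its group. In the fit of every probe set its log2 change was 1.20 at 24 h (limma adjusted p = 0.00529) and 0.80 at 48 h (limma adjusted p = 0.00673). The Gla probe set too dim to be tested had a mean intensity of 4.7 and a log2 change of 0.31 at 24 h. It is part of the mean of the Gla probe sets.

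Gusb, the beta-glucuronidase, fell by its brighter probe set. At 24 h this set read 632 and 648 with siC and 422 and 476 with siLsd1. At 48 h it read 586, 603 and 642 with siC and 417, 416 and 391 with siLsd1. The groups did not overlap at either time, and replicate 3 lay near its group. The log2 change was -0.51 at 24 h (SE 0.10, limma adjusted p = 0.0204), or 1.43-fold lower, and -0.58 at 48 h (SE 0.08, limma adjusted p = 0.00406), or 1.50-fold lower. The 48 h call was made in all 10 fits that left out 1 array and held at -0.55 without replicate 3 (limma adjusted p = 6e-04). The 24 h call was lost without any one of the 24 h arrays, namely siC replicate 1 (limma adjusted p = 0.123) and 2 (0.134) and siLsd1 replicate 1 (0.211) and 2 (0.0663), with the replicate number as a block (0.103) and with the mean of its probe sets (0.133).
The other Gusb probe set did not show this fall. It read 219 and 208 with siC and 198 and 205 with siLsd1 at 24 h, and 242, 203 and 220 with siC and 202, 199 and 227 with siLsd1 at 48 h, where the groups overlapped. Its log2 change was -0.08 at both times in the fit of every probe set (limma adjusted p = 0.798 at 24 h and 0.672 at 48 h).

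**Figure D3:**
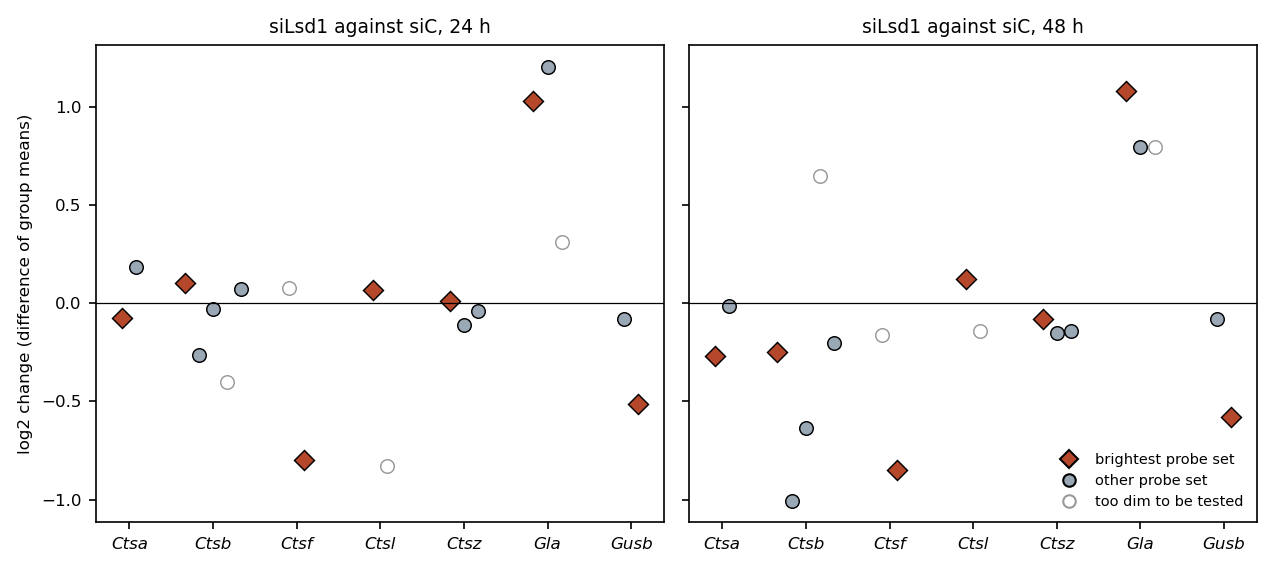
Log2 change, as the difference of group means, of each probe set of the 7 members with several, for siLsd1 against siC at 24 h (left) and 48 h (right), with diamonds for the brightest probe set and open circles for the 4 too dim to be tested. The Gla probe sets that were tested lie together above 0, whereas the other Gusb probe set lies near 0 and the tested Ctsb probe sets spread from -0.20 to -1.01 at 48 h.

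Of the 22 probe sets, 18 were bright enough to be tested singly, and the 4 others (of Ctsb, Ctsf, Ctsl and Gla) had means of at most 13.3. These 4 still enter the setting that averages a gene's probe sets. Ctsd, Ctsk and Ctss have 1 probe set each. The dimmer Ctsa probe set had a log2 change of -0.01 at 48 h (limma adjusted p = 0.956), beside -0.27 for the brighter one (0.055 in the fit of every probe set). Both other Ctsz probe sets were lower with siLsd1 at 48 h without passing, at -0.15 (limma adjusted p = 0.206) and -0.14 (0.297).

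From 24 h to 48 h, and passage 19 to 21, several cathepsins were higher in the control cells. With siC, 4 members were called higher at 48 h and 0 lower, where 12.0% of all genes were called higher and 12.2% lower. Ctsf rose by 1.36 on the log2 scale (SE 0.23, limma adjusted p = 0.00237), Ctsk by 0.61 (SE 0.09, 0.00139), Ctsa by 0.60 (SE 0.08, 0.000827) and Ctsz by 0.23 (SE 0.06, 0.0254). The calls of Ctsf, Ctsk and Ctsa were made in all 10 fits without 1 array, while that of Ctsz was lost in 4 of them, without either siC array of 24 h (limma adjusted p = 0.108 and 0.137) or siC 48 h replicate 2 (0.103) or 3 (0.0635). Ctss and Gla had log2 changes of -0.72 (limma adjusted p = 0.0777) and -0.46 (0.172), and both passed, as did Ctsd and Ctsl upward, without siLsd1 48 h replicate 3, with 6 members higher and 2 lower. Of all 13644 genes, 2878 were higher and 2632 lower in that fit. Centring the arrays on their medians moved the median change of all genes in this comparison from 0.01 to -0.13, and 1053 genes were then higher and 2623 lower, against 1640 and 1662. Ctsz was then at 0.09 and did not pass (limma adjusted p = 0.345).

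With siLsd1, 3 members were called higher at 48 h than at 24 h and 1 lower, where 7.25% of all genes were called higher and 7.13% lower. Ctsf rose by 1.30 (SE 0.23, limma adjusted p = 0.00575), Ctsa by 0.41 (SE 0.08, 0.0109) and Ctsk by 0.34 (SE 0.09, 0.0354). Ctss fell by 1.52 (SE 0.27, limma adjusted p = 0.0062), which is 2.87-fold. Without siLsd1 24 h replicate 1, none of the 4 calls was made, with limma adjusted p-values of 0.0775 for Ctss, 0.0701 for Ctsf, 0.0714 for Ctsa and 0.194 for Ctsk. Without siLsd1 24 h replicate 2, Ctsa (0.11) and Ctsk (0.178) were lost. The Ctsk call was lost in 4 further fits, when siC 48 h replicate 2 (0.0666) or 3 (0.0558), and likewise siLsd1 48 h replicate 1 (0.0961) or 2 (0.111), was left out. Without siLsd1 48 h replicate 3, 3 members were higher and 3 lower, where 2900 of all 13644 genes were higher and 2332 lower. Centring the arrays gave 760 genes higher and 1311 lower, and quantile normalization 1208 and 865, against 989 and 973. These time comparisons share their arrays with the siRNA comparisons.

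The siLsd1 change at 48 h minus that at 24 h was called by limma for 0 of the 10 members, with 1 at an unadjusted p under 0.05. Over all genes, 0% were called higher and 0% lower by limma, while 896 had an unadjusted p under 0.05, and 434 were called with array weights, 1 without the intensity trend, 3 with the intensity plus 16 and 201 without siLsd1 48 h replicate 3. The difference was -0.80 for Ctss (SE 0.38, limma adjusted p = 0.795), -0.36 for Ctsb (SE 0.13, 0.64) and -0.27 for Ctsk (SE 0.13, 0.801). The remaining 7 members had differences between -0.19 (Ctsa) and 0.05 (Ctsl). Array weights (limma) called the Ctsb difference, at -0.28 (limma adjusted p = 0.0378).

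Other lysosomal genes were read from lists, without a test of any list. Beside each list, 2.60% of all genes tested were called higher and 2.79% lower at 24 h, and 6.00% and 6.67% at 48 h. The remaining proteases, led by the cathepsins C and H, numbered 11 tested, of which 0 rose and 1 fell at 24 h and 0 were called by limma at 48 h, with 2 at an unadjusted p under 0.05. Ctsh, an aminopeptidase, fell by 1.08 at 24 h (limma adjusted p = 0.0334) and was at -0.46 at 48 h (0.141). Ctsc, which activates serine proteases of immune cells, was at 0.70 at 48 h (limma adjusted p = 0.102) and at 1.09 without siLsd1 48 h replicate 3 (9.84e-06). Of 13 other glycosidases, 1 rose and 0 fell at 24 h, and 0 rose and 1 fell at 48 h. They were Neu1, the sialidase that works in a complex with cathepsin A, at 0.75 at 24 h (limma adjusted p = 0.011), and Fuca1, the alpha-fucosidase, at -0.38 at 48 h (0.0411). Of 16 other hydrolases and activators, 0 rose and 2 fell at 24 h, and 0 rose and 3 fell at 48 h. Smpd1, the acid sphingomyelinase, was at -0.43 (limma adjusted p = 0.0365) and -0.38 (0.0209). Ids, the iduronate sulfatase, was at -0.70 (limma adjusted p = 0.0434) and -0.64 (0.0219), and 2 of its 5 other probe sets at 24 h and 3 at 48 h had the opposite sign. Pla2g15, a lysosomal phospholipase, was at -0.60 at 48 h (limma adjusted p = 0.0268), and its other probe set was at 0.11. The median log2 changes of these 3 lists were -0.19, -0.16 and -0.18 at 24 h and 0.01, -0.09 and -0.13 at 48 h, beside -0.02 over all genes at both times. Without siLsd1 48 h replicate 3, the calls at 24 h numbered 2 higher and 2 lower for the proteases, 1 and 5 for the glycosidases and 2 and 7 for the hydrolases and activators, and at 48 h 1 and 0, 0 and 1, and 0 and 3. Calls over all 13644 genes also grew in that fit, to 1384 higher and 2094 lower at 24 h and 1114 and 1359 at 48 h.

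The subunits of the vacuolar ATPase, the pump that acidifies the lysosome, had a median log2 change of 0.23 at 24 h and 0.13 at 48 h. Of 15 tested, 5 rose and 0 fell at 24 h, where 2.60% of all genes rose. Atp6v0b rose by 0.85 (limma adjusted p = 0.00307), Atp6v0e by 0.47 (0.00751), Atp6v1h by 0.44 (0.0337) and Atp6v1d by 0.42 (0.0271). At 48 h, 4 rose and 1 fell, where 6.00% of all genes rose and 6.67% fell. Atp6v1c1 rose by 0.53 (limma adjusted p = 0.00985), Atp6v0b by 0.46 (0.0101) and Atp6v1h by 0.34 (0.0265), and Atp6v0a1 fell by 0.89 (0.0122). Without siLsd1 48 h replicate 3, 7 rose and 1 fell at 24 h, and 4 rose and 1 fell at 48 h. In that fit 1384 of all 13644 genes rose and 2094 fell at 24 h, and 1114 rose and 1359 fell at 48 h. The other probe sets of Atp6v1h went the opposite way (both at 48 h, 1 of 2 at 24 h), as did 2 of 3 of Atp6v0a1. Over the 10 fits without 1 array, the subunits that rose numbered 0 to 7 at 24 h and 2 to 4 at 48 h.

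Of 13 lysosomal membrane proteins, 0 were called by limma at 24 h (4 at an unadjusted p under 0.05), and 0 rose and 1 fell at 48 h. Npc1, the cholesterol exporter, fell by 0.42 at 48 h (limma adjusted p = 0.0202) and was at -0.31 at 24 h (0.131), and Lamp1, a membrane protein of the lysosome, was at 0.19 at 24 h (0.0886). Of 12 genes for the delivery of enzymes, 0 were called by limma at 24 h (4 at an unadjusted p under 0.05), and 1 rose and 0 fell at 48 h. M6pr, the small mannose 6-phosphate receptor, was at 0.57 at 24 h (limma adjusted p = 0.0672) and rose by 0.52 at 48 h (0.0304), while Igf2r, the large one, was at -0.61 at 24 h (0.115). Of 9 genes of the MiT/TFE transcription factors and their regulators, 1 rose and 0 fell at 24 h, and 0 rose and 1 fell at 48 h. They were Flcn, a regulator of these factors, at 0.57 at 24 h (limma adjusted p = 0.0214), and Mitf, at -0.66 at 48 h (0.00324). With siLsd1 48 h replicate 3 left out, the calls at 24 h were 1 higher and 3 lower for the membrane proteins, 3 and 1 for the delivery genes (M6pr among the higher, Igf2r the lower) and 1 and 1 for the MiT/TFE genes. At 48 h they were 0 and 1, 1 and 0, and 1 and 1, with M6pr at 0.34 (limma adjusted p = 0.00128). Beside these, 1384 of all 13644 genes were higher and 2094 lower at 24 h, and 1114 and 1359 at 48 h.

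**Figure D4:**
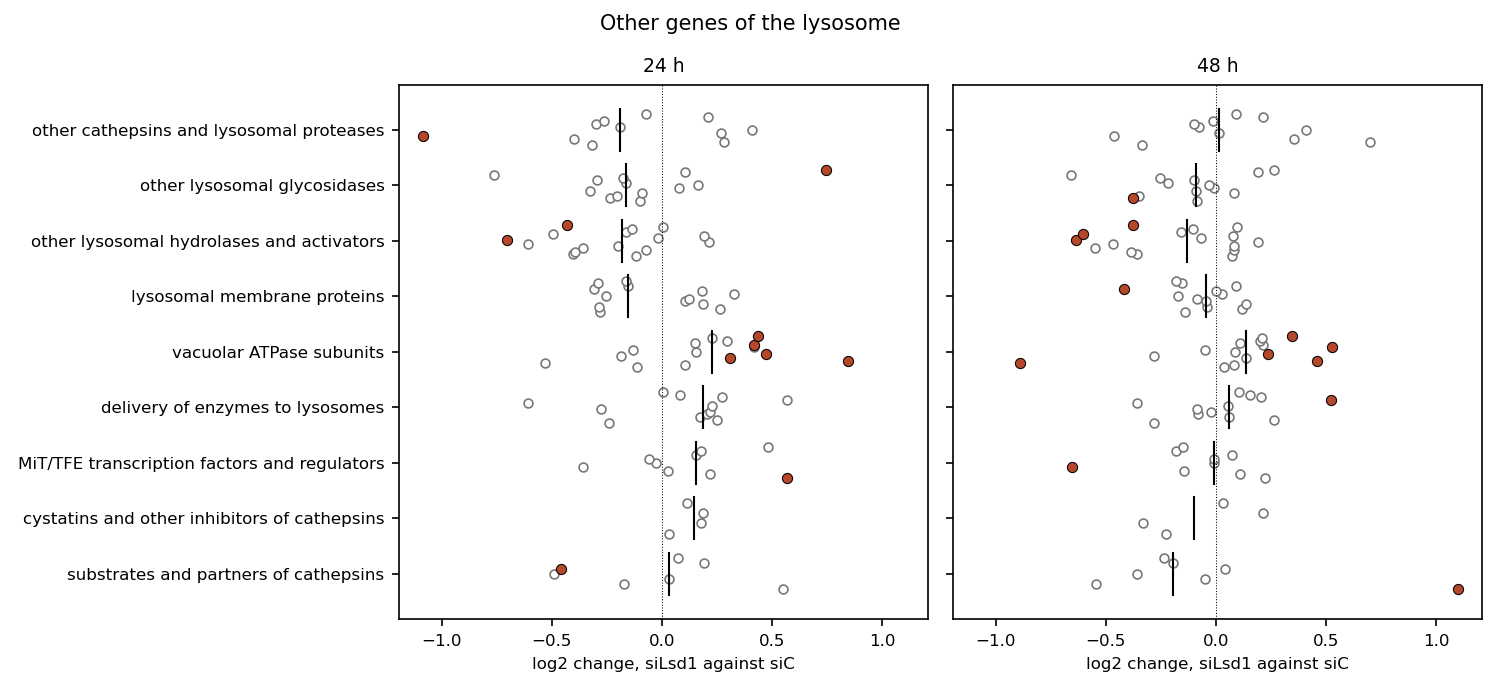
Log2 change with siLsd1 against siC of the tested genes of 9 lists at 24 h (left) and 48 h (right), 1 circle per gene, filled where the limma adjusted p was under 0.05, with a bar at each list's median. The bar of the vacuolar ATPase subunits lies at 0.23 at 24 h, and those of the other enzymes lie between -0.19 and -0.16.

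Inhibitors and substrates of the cathepsins were read last. Of 4 inhibitors tested, 0 were called by limma at either time, with 0 at an unadjusted p under 0.05 at 24 h and 2 at 48 h. Cst3, cystatin C, was at -0.23 at 48 h (limma adjusted p = 0.0575). Cstb, cystatin B, was at 0.19 at 24 h (0.248) and 0.22 at 48 h (0.0728), and Serpinb6a, a serpin, was at 0.11 at 24 h (0.289). Of 7 substrates and partners tested, 0 rose and 1 fell at 24 h, and 1 rose and 0 fell at 48 h. Fn1, fibronectin, fell by 0.46 at 24 h (limma adjusted p = 0.0249) and was at 0.04 at 48 h (0.756), a difference between the times of 0.50 that did not pass (0.469). Cd74, the invariant chain that cathepsin S trims, was at 0.55 at 24 h (limma adjusted p = 0.222) and rose by 1.10 at 48 h (0.0112). H2-Ab1 and H2-Aa, MHC class II chains of the same list, read at most 15.8 and 30.9 and were too dim to be tested. H2-DMa was at 0.19 at 24 h (limma adjusted p = 0.701) and -0.19 at 48 h (0.545). Of the 10 calls named from these lists at 24 h, 0 were made in every fit without 1 array: 9 or 10 were lost without an array of 24 h, and 3, 6 and 4 without siC 48 h replicates 1, 2 and 3. Of the 12 at 48 h, 4 were made in every such fit (Atp6v1c1, Atp6v0b, Mitf and Cd74), and 7, 8 and 7 were lost without siC 48 h replicates 1, 2 and 3. All 12 were made without siLsd1 48 h replicate 3, with Fuca1 then at -0.24 (limma adjusted p = 0.00565). With it left out, the substrates and partners had 1 higher and 1 lower at 24 h and 1 and 0 at 48 h, and the inhibitors 0 called at either time. All 13644 genes then had 1384 higher and 2094 lower at 24 h, and 1114 and 1359 at 48 h.

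The genes whose pattern over the 10 arrays was most like that of the member with the largest rise and of the one with the largest fall were found by the mean absolute difference of log2 values centred on each gene's mean. For Ctss they were AW112010 (0.20), Ccl8 (0.22), Ms4a4d (0.29), Slc9b2 (0.31) and LOC664787 (0.31). Ccl8 encodes a chemokine, and its log2 change was 1.95 at 24 h and 1.07 at 48 h, while that of AW112010 was 1.56 and 1.57. For Ctsf they were Slc22a17 (0.15), Enho (0.16), H3f3b (0.16), Ccl27a (0.16) and Ydjc (0.17). The log2 change of Slc22a17 was -0.46 at 24 h and -1.09 at 48 h, and that of Ydjc was -1.08 and -1.02. These genes were chosen for their likeness over the same arrays, so their changes are a description.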

How the data were processed

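Total RNA was labelled as biotin-cRNA and hybridised to Affymetrix arrays, per the labels' protocols. The authors deposited 1 intensity per probe set and array, on a linear scale. The software that summarised the arrays, and any normalization between them, are not given in the sources used here. No value was 0 or negative, and log2 was taken with nothing added and no further normalization. Titles gave the siRNA and time of each sample.

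Probe sets were named by the platform annotation: 34945 carried 1 symbol, 932 several and 9160 none. Each gene was read from its brightest probe set, by the mean of the 10 arrays. The 25% of genes with the lowest mean (4549 genes, up to 18.4) were left out as dim. The 4 group means were fitted with limma 3.58.1 in R 4.3.3 (eBayes with an intensity trend, 6 residual degrees of freedom), and p-values were adjusted within each of 5 comparisons. The fit was first tested on simulated data. Figures were drawn with matplotlib 3.10.9.

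Named are all members, Kdm1a, from each list up to 4 called genes with the largest fold at each time (or up to 2 with the smallest p), and the 5 genes most like 2 members. H2-Ab1, H2-Aa and H2-DMa were added from the list that holds Cd74, after their values were seen. The cell type markers named (such as Mpeg1, Csf1r, Thy1 and Itgb3) were picked from their lists after their values were seen. The members and lists were chosen with earlier results of these data known. No pairing by replicate number was seen: the correlation of same-numbered deviations was -0.0737 at 24 h and -0.19, 0.0544 and -0.0639 at 48 h. A pairing is not excluded by this, since 24 h has 2 arrays per group and siLsd1 48 h replicate 3 stood apart. Alternatives numbered 11 planned settings and each array left out in turn. Averaging siLsd1 48 h replicates 1 and 2, the closest arrays of one group, was chosen after seeing the data. The number of arrays limits the precision.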

Additional observations from a re-analysis of the deposited data

How the results depend on the processing

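The limits are the 2 or 3 arrays per group, siLsd1 48 h replicate 3, which widens the spread shared by all comparisons, and probe sets that disagree. Those of Gusb disagree at both times and those of Ctsa at 48 h. The tested Ctsb probe sets differ in sign at 24 h, but at 48 h only in the size of their fall. The members called numbered 3 at 24 h, 6 at 48 h, 4 for siC over time and 4 for siLsd1 over time. With the replicate number as a block, a pairing that the data neither showed nor could exclude, 1 member was called at 24 h (Ctss) and 4 at 48 h. The calls of Gla and Gusb at 24 h and of Ctsk and Ctsa at 48 h were then lost. The block could not be fitted for the time comparisons, since each block lies within 1 time, and the groups alone could not give the difference of the changes. With probe sets averaged per gene, 1 member was called at 24 h and 2 for siLsd1 over time. With the arrays of the groups compared alone, 1 was called at 48 h and 0 for siLsd1 over time, where limma gave 347 genes and 3167 at an unadjusted p under 0.05. Array weights called 4 at 24 h, 9 at 48 h (3 higher and 6 lower, Ctsb, Ctsd and Ctsz among them), 8 for siC over time, 8 for siLsd1 over time and 1 for the difference of the changes. With the lowest 50% left out, Ctss and Ctsf were not tested. Leaving out 1 array gave 0 to 4 members at 24 h, 3 to 7 at 48 h, 3 to 8 for siC over time and 0 to 6 for siLsd1 over time.

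Signs turned for small changes. With probe sets averaged per gene, Ctsa was at 0.055, Ctsb at -0.10, Ctsl at -0.38 and Ctsz at -0.046 at 24 h, Ctsl at -0.0091 at 48 h, and Ctsb at -0.021 and Ctsl at -0.34 for siC over time. The means of Ctsb and Ctsl each include a probe set too dim to be tested, at -0.40 and -0.83 at 24 h. With quantile normalization, Ctsl was at -0.013 and Ctsz at -0.0009062 at 24 h. With arrays centred on the median, Ctsb was at -0.082 and Ctsl at -0.029 for siC over time, and the difference of the changes of Ctsf was 0.0054. With array weights, that difference was -0.017 for Ctsd, 0.053 for Ctsf, -0.039 for Ctsl and -0.27 for Gla. Leaving out 1 array, it ranged from -0.044 to 0.054 for Ctsd, from -0.35 to 0.24 for Ctsf, from -0.023 to 0.10 for Ctsl, from -0.24 to 0.22 for Gla and from -0.15 to 0.019 for Gusb, and at 24 h Ctsk ranged from -0.21 to 0.001594 and Ctsz from -0.0085 to 0.030. The cause was not tested.

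Of all genes, 736 were called at 24 h, against 149 with the block, 402 without the intensity trend, 427 with probe sets averaged, 3183 with the 24 h arrays alone, 3571 with array weights and 30 to 3478 without 1 array. At 48 h, 1728 were called, against 250 with those arrays alone, 665 with the block, 948 with probe sets averaged, 1006 without the trend, 4922 with array weights and 382 to 2473 without 1 array. For siC over time, 3302 were called, against 5483 with every probe set tested, 6192 with array weights and 1482 to 5510 without 1 array. For siLsd1 over time, 1962 were called, against 347 alone, 1035 with siLsd1 48 h replicates 1 and 2 averaged, 6336 with array weights and 357 to 5232 without 1 array. Centring the arrays gave 330 higher and 540 lower at 24 h, against 355 and 381, and 1043 and 756 at 48 h, against 818 and 910.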
